A study of Homo sapiens with 8 samples.

Results

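Transcript levels of 36 genes of the Fanconi anemia and homologous recombination pathways were examined in EA.hy926 cells from which an enhancer had been deleted. EA.hy926 is a permanent line obtained by fusing human umbilical vein endothelial cells with a lung carcinoma line. The 36 genes are a set list of symbols, each of which was found in the deposited table. One transcript per gene was kept, that of the highest mean level over all libraries, so that 36 of 27946 genes and 36 of their 114 listed transcripts were used. All 36 passed the filter on low values (0.5 FPKM or more in 2 or more libraries), as did 13790 genes in all. EXO1, XRCC2 and RAD54L were under 0.5 FPKM in both controls and passed only through the clones. BRCA2 and EME1 reached 0.5 FPKM in control replicate 1 but not in control replicate 2, and so also needed the clones. Genes with such low controls could be tested only where clones were higher, so that their rise is partly a condition of being listed.

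After removal of ribosomal RNA, total RNA was sequenced for 2 control libraries, 3 clones in which E2 had been deleted with Cas9 and a pair of guide RNAs (ΔE2), and 3 clones with a deletion of SE12313-b made in the same way (ΔSE12313-b). Both elements belong to the super-enhancer SE12313 near ADAMTS18. E2 drove reporter genes in endothelial cells, whereas SE12313-b was chosen as an element without such activity. All cells were grown in high-glucose DMEM with serum. Each deletion library comes from 1 clone, so that the deletion and the history of a clone cannot be told apart within a library. For its proliferation experiment the paper reports guide RNA transfection of the controls, which grew alongside the clones. It does not state that these controls were cloned, or that the sequenced controls were the same cells. If the sequenced controls were not cloned, cloning is mixed with deletion in every comparison with them. The part of cloning in the changes below was not tested. The labels name the 2 controls without saying whether they come from separate cultures. Their reads differed by 1.19 times the chi-square expected from counting alone, while pairs of clones of the same deletion differed by 4.00 to 22.9 times. The p values below therefore measure the spread between these libraries, part of which may be technical. The deleted elements have no transcript in the table, and ADAMTS18, which lies in the region of the super-enhancer, is given as a check of the labels instead. The controls had an FPKM of 0.682 and 0.859, ΔE2 clones one of 0.133, 0.149 and 0.0870, and ΔSE12313-b clones one of 0.232, 0.149 and 0.128, lower in all 6 clones than in both controls (log2 fold change -1.97 and -1.70, limma adjusted p = 0.00453 and 0.00777).

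Levels are FPKM, the sequenced fragments of a transcript scaled to its length in kilobases and to the depth of the library, so that they can be compared between genes. A library held between 12067559 and 19101153 reads. In replicate order, reads on the kept transcripts were 8151472 of 12696176 and 7802281 of 12067559 in the controls. They were 13374129 of 19101153, 12223052 of 17124020 and 9981607 of 13616467 in ΔE2. In ΔSE12313-b they were 12588434 of 16085522, 11147112 of 14814168 and 12463657 of 15890259. FPKM is scaled to all reads of a library, so this share, lowest in the controls, enters every level. Its part in the changes below was not tested. Changes are differences in log2(FPKM + 0.1) fitted with limma over all 8 libraries, given with the standard error (SE) and a p value adjusted over the 13790 genes. Genes were called DEGs when the adjusted p was under 0.05 and the level moved 2-fold or more. Of 11 endothelial markers 9 had a mean FPKM of at least 0.5 in each group, CLDN5 being listed at 0 in all of them. The summed FPKM of these markers was 447 in both controls, 478 to 682 in ΔE2 and 487 to 678 in ΔSE12313-b. The summed FPKM of 5 epithelial markers was 232 to 239 in the controls, 613 to 752 in ΔE2 and 541 to 669 in ΔSE12313-b, with CDH1 at 0 in all 3 groups. Only 2 of these 5, KRT8 and KRT18, had a mean FPKM of at least 0.5 in each group, and they make up nearly all of the sum. In controls, ΔE2 and ΔSE12313-b the mean was 86.7, 272 and 273 for KRT8 and 148, 416 and 329 for KRT18. EPCAM went the other way, with 0.40, 0.186 and 0.0497. KRT19 was at 0 in both controls and had a mean of 0.0867 in ΔE2 (0.16 in replicate 2) and 0.0877 in ΔSE12313-b. Fibroblast and blood markers summed to 0.251 or less in every library. The part of these shifts in the results below was not tested.

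Homologous recombination repairs a DNA double-strand break by copying the intact sister chromatid. The broken ends are sensed and cut back to single strands, BRCA1, BRCA2 and PALB2 prepare them for pairing with the sister, and the joint molecules that form are later resolved by helicases and nucleases. The Fanconi anemia pathway detects cross-links between DNA strands at stalled replication forks. Its core complex, together with the enzyme UBE2T, attaches ubiquitin to FANCI and FANCD2, which then direct the cutting of the cross-link and hand the break to recombination. Because a sister chromatid is required, many of these genes are transcribed mainly in S and G2 phase, under E2F factors and the DREAM repressor complex, and are low in resting endothelium. In bulk RNA a larger share of cycling cells and more RNA per cell cannot be told apart.

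To show what the starts of these genes carry, the promoters held in RefSeq (250 bases before to 50 bases after the start, assembly GRCh38.p14) were searched on both strands for E2F words, that is TTTCCCGC, TTTCGCGC, TTTGCCGC or TTTGGCGC. Of the 36 genes 33 had an entry, and FANCI, RAD54B and NBN were not in that table. An E2F word was present in 5 of 33 members, in 3.99% of the 27305 genes of the table and in 6.82% of the 9752 tested genes that had an entry. The 5 genes include the members with the largest and second largest rise in both deletions on the scale used here, EXO1 and XRCC2, and also FANCC, for which no change was detected in either, and so they are shown together. Each window runs from 200 bases before to 30 bases after the start, on the strand of the gene, with the E2F words in capitals.
EXO1, chr1:241848004-241848233, plus strand: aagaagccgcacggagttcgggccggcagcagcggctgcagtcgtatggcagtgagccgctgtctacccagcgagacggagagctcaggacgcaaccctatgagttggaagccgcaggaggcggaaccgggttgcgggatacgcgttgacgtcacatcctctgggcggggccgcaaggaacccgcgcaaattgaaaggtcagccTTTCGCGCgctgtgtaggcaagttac
XRCC2, chr7:152676112-152676341, minus strand: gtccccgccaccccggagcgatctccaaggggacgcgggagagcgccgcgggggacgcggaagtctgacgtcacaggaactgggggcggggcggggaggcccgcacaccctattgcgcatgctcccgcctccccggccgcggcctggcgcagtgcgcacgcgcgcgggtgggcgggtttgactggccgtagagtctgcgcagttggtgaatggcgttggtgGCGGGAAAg
FANCD2, chr3:10026237-10026466, plus strand: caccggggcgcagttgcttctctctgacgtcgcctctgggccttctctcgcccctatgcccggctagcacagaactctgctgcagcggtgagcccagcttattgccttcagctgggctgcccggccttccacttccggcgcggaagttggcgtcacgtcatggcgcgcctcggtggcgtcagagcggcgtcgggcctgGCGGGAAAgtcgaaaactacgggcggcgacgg
FANCA, chr16:89816618-89816847, minus strand: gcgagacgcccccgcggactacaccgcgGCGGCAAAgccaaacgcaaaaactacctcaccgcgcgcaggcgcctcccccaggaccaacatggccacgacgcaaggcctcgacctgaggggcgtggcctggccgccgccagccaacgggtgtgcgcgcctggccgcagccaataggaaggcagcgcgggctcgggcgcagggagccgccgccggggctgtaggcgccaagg
FANCC, chr9:95317680-95317909, minus strand: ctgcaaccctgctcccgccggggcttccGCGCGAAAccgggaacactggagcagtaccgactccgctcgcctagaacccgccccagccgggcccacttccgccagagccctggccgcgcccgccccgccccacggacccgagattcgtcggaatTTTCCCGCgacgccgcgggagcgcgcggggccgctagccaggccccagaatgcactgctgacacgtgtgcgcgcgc
The word began at position 5 after the start in EXO1, at 22 after it in XRCC2 and 2 bases before it in FANCD2. In FANCA and FANCC a word began 172 bases before the start, and FANCC had another one 46 bases before it. Among the members that were DEGs of both deletions 4 of 19 promoters had a word, and among those that were DEGs of neither 1 of 12. CCAAT was found in 15 of 33 members (39.7% of all genes in the table, 43.5% of those tested). The GC box GGGCGG was found in 25 (48.3% of all genes, 76.1% of those tested). The ETS word CCGGAAG was found in 10 (12.2%, 22.6%) and a cell cycle homology element (TTTGAA or TTCGAA) in 4 (19.5%, 15.3%). None of the 6 E2F words shown overlaps another of these words, and the matches describe letters only.

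To describe the pathway in the clones without E2, the ΔE2 clones were compared with the controls. Of the 36 genes 23 were DEGs with a higher level and 0 with a lower one, while 11.2% of all tested genes were higher and 8.36% lower. At an adjusted p under 0.05 alone, 28 members were higher and 2 lower, with 54.1% of all genes passing this mark in either direction. The median change was 1.78 over the members and 0.14 over all genes. Deletion of SE12313-b gave 21 DEGs with a higher level and 0 with a lower one, against 14.7% and 7.83% of all genes. Here 32 members were higher and 2 lower at an adjusted p under 0.05 (59.4% of all genes in either direction), with a median change of 1.70 over the members and 0.27 over all genes. At an unadjusted p under 0.05, 32 members passed in ΔE2 and 35 in ΔSE12313-b in either direction (59.7% and 63.9% of all genes), and voom on recovered reads gave 0 and 1 lower DEGs, the latter being ATM. When each library was first centred on its median gene, 21 members remained above the mark of a DEG in ΔE2 and 20 in ΔSE12313-b, while the split of all genes moved from 1544 higher and 1153 lower to 1170 and 1464 in ΔE2 and from 2032 and 1080 to 1201 and 1570 in ΔSE12313-b. Without allowance for any test, all 3 ΔE2 clones lay above both controls for 31 members and below both for 2, and all 3 ΔSE12313-b clones above for 33 and below for 2. Of all tested genes 44.8% lay above and 28.7% below in this way in ΔE2, and 51.6% and 23.8% in ΔSE12313-b, which adds up to 73.5% and 75.3% of all genes without overlap with the 2 controls. Both deletions share the same 2 controls, so that their agreement is no second observation. MKI67, a marker of cycling cells, rose in the same libraries, on the log2 scale by 5.21 ± 0.22 (SE) in ΔE2 and by 5.58 ± 0.22 in ΔSE12313-b (limma adjusted p = 1.44e-06 and 1.01e-06). In separate assays the paper measured slower proliferation of clones of both deletions than of its control cells. It also found more of their cells in G0/G1 and fewer in S phase. The part of cell cycling in the members' changes was not tested.

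The BRCA1 and BRCA2 group holds BRCA1, BARD1, BRIP1, PALB2 and BRCA2. BRCA1, a ubiquitin ligase and scaffold (chr17:41196312-41276132, hg19), had an FPKM of 1.03 and 1.02 in the controls, 11.3, 9.67 and 11.0 in ΔE2, and 11.998, 10.0 and 9.88 in ΔSE12313-b. The controls were far below every clone and nearly equal, and the clones of both deletions overlapped. BRCA1 rose by 3.25 ± 0.12 (SE) on the log2 scale in ΔE2 and by as much in ΔSE12313-b (limma adjusted p = 6.99e-07 and 7.00e-07). BRIP1, the helicase that binds BRCA1, went from 0.590 and 0.661 to 7.05, 5.95 and 7.36 in ΔE2 and 7.05, 6.90 and 5.97 in ΔSE12313-b, a rise of 3.24 and 3.21. BRCA2, which acts on the single-stranded DNA left by resection, went from 0.569 and 0.430 to 4.12, 3.47 and 4.16 in ΔE2 and 3.42, 4.82 and 2.87 in ΔSE12313-b. Its rise was 2.75 ± 0.23 and 2.64 ± 0.23, with the widest spread of any member among the ΔSE12313-b clones (SD 0.37 on the log2 scale). BARD1, the obligate partner of BRCA1, rose less, by 1.44 and 1.20. PALB2, the bridge between BRCA1 and BRCA2, was a DEG of neither deletion. Its FPKM was 7.56 and 7.38 in the controls, 8.31 to 9.37 in ΔE2 and 12.1 to 13.8 in ΔSE12313-b, a change of 0.24 (95% interval 0.03 to 0.45, limma adjusted p = 0.0512) and of 0.80 (0.59 to 1.01, adjusted p = 0.000168).

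Of the 5 genes of the BCDX2 and CX3 complexes, which assist the search for the intact copy, XRCC2 rose most. Its FPKM (chr7:152343587-152373250, hg19) was 0.308 and 0.460 in the controls, from 12 and 17 reads, against 11.0, 9.24 and 11.96 in ΔE2 and 10.7, 9.56 and 8.22 in ΔSE12313-b. The change was 4.50 ± 0.18 and 4.32 ± 0.18 (limma adjusted p = 1.02e-06 and 1.22e-06). XRCC3, which pairs with RAD51C, rose from 1.37 and 1.44 to 8.74, 7.03 and 8.26 in ΔE2 and 9.89, 10.9 and 9.79 in ΔSE12313-b, by 2.43 and 2.78. Its annotated exons share 76.7% of their bases with KLC1 on the opposite strand, whose FPKM of 30.3 and 31.2 in the controls exceeded that of XRCC3, and although the library kit keeps the strand, whether the counting behind the table used it is not stated in the sources used here. KLC1 changed by 0.13 and 0.47. RAD51C, a member of both complexes, had the least even controls of these 5 genes, 9.52 and 5.88, against 18.7, 17.2 and 20.9 in ΔE2 and 19.3, 18.0 and 20.5 in ΔSE12313-b. It rose by 1.32 ± 0.19 and 1.35 ± 0.19, and by 0.98 in ΔE2 when control replicate 2 was left out, below the 2-fold mark. RAD51D lay at that mark, with 1.04 in ΔE2 and 0.99 in ΔSE12313-b. Its value for ΔE2 was 0.97 without control replicate 2 and 0.99 without ΔE2 replicate 2, and that for ΔSE12313-b was between 1.03 and 1.06 without control replicate 1 or ΔSE12313-b replicate 1 or 2. RAD51B changed by 0.25 (95% interval -0.05 to 0.54) and 0.32 (0.02 to 0.61) and passed the test in neither deletion.

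All 3 strand exchange factors were DEGs of both deletions. RAD54L, a motor protein that drives strand exchange, had an FPKM of 0.343 and 0.295 in the controls, from 11 and 9 reads, and of 6.40, 5.24 and 6.77 in ΔE2 and 6.62, 6.52 and 5.63 in ΔSE12313-b. It rose by 3.89 ± 0.15 and 3.92 ± 0.15 (limma adjusted p = 8.23e-07 and 7.79e-07). RAD51AP1, which stimulates the joining of strands, went from 0.999 and 0.939 to 12.3, 10.4 and 12.7 in ΔE2 and 17.1, 16.5 and 13.7 in ΔSE12313-b, by 3.47 ± 0.13 and 3.89 ± 0.13. Here the ΔSE12313-b clones all lay above the ΔE2 clones. RAD54B, a relative of RAD54L, rose from 1.03 and 0.922 to 5.77, 5.54 and 6.70 in ΔE2 and 6.87, 5.30 and 5.17 in ΔSE12313-b, by 2.501 and 2.44.

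Of the 9 genes of the Fanconi core complex and its partner enzyme UBE2T, 5 were DEGs in each deletion. FANCB, a scaffold subunit of the catalytic part on the X chromosome, had an FPKM of 0.801 and 0.843 in the controls, from 6 reads each on a transcript of 590 bases, and of 8.61, 5.35 and 8.09 in ΔE2 and 7.06, 7.89 and 5.97 in ΔSE12313-b. It rose by 2.98 ± 0.21 and 2.93 ± 0.21, and its longest transcript, with 37 and 28 control reads, by 2.52 and 2.32. FANCA, another scaffold subunit, went from 1.71 and 1.44 to 9.61, 8.86 and 10.8 in ΔE2 and 7.07, 7.87 and 6.04 in ΔSE12313-b. Its rise was 2.56 ± 0.14 and 2.08 ± 0.14 (limma adjusted p = 6.18e-06 and 1.54e-05), and every ΔE2 clone lay above every ΔSE12313-b clone. FANCA shares 19.6% of its exon bases with ZNF276 on the opposite strand, which fell by 0.89 and 1.23 on the log2 scale. UBE2T, the enzyme that passes ubiquitin to FANCD2 and FANCI, was already at 4.82 and 5.99 in the controls and reached 28.3, 25.6 and 27.4 in ΔE2 and 27.5, 23.9 and 27.1 in ΔSE12313-b, a rise of 2.31 and 2.26. FANCM, the translocase that recruits the core complex to chromatin, rose by 1.92 and 1.999, and FANCG by 1.65 and 1.77.

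The remaining core genes moved little. FANCL, the ubiquitin ligase of the complex, rose by 0.60 (95% interval 0.29 to 0.91) and 0.59 (0.28 to 0.90), and FANCE, which contacts FANCD2, by 0.61 (0.19 to 1.03) and 0.74 (0.32 to 1.16), all 4 changes with an adjusted p under 0.05 and below 2-fold. FANCF, an adaptor subunit, changed by 0.06 (-0.22 to 0.34, limma adjusted p = 0.705) in ΔE2 and rose by 0.51 (0.23 to 0.79, adjusted p = 0.00784) in ΔSE12313-b. FANCC, whose promoter holds a pair of E2F words as printed above, had an FPKM of 2.48 and 1.94 in the controls, 2.41 to 2.60 in ΔE2 and 2.38 to 2.92 in ΔSE12313-b, and its groups overlapped in both comparisons. It changed by 0.19 (-0.16 to 0.55) and 0.30 (-0.05 to 0.66), with adjusted p of 0.312 and 0.122 by limma.

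Both substrates of the core complex rose together. FANCI had an FPKM of 4.12 and 3.98 in the controls, 29.7, 25.2 and 31.3 in ΔE2 and 29.6, 27.1 and 24.9 in ΔSE12313-b, which made it the most abundant member in both deletions by mean FPKM. FANCD2 went from 1.14 and 1.28 to 7.73, 7.10 and 8.91 in ΔE2 and 7.40, 7.88 and 6.35 in ΔSE12313-b. The rises were 2.79 ± 0.11 and 2.72 ± 0.11 for FANCI and 2.61 ± 0.14 and 2.47 ± 0.14 for FANCD2 (limma adjusted p = 1.03e-06, 1.16e-06, 4.11e-06 and 4.60e-06).

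Break sensing and end resection held the largest rise and the gene with the least spread. EXO1, the nuclease that extends resection (chr1:242012033-242053241, hg19), had an FPKM of 0.0990 and 0.287 in the controls, from 4 and 11 reads, and of 8.90, 7.55 and 9.91 in ΔE2 and 10.3, 9.03 and 8.99 in ΔSE12313-b. It rose by 4.99 ± 0.26 and 5.10 ± 0.26 (limma adjusted p = 3.87e-06 and 3.07e-06), more than any other member in both deletions, on a baseline of few reads and near the 0.1 FPKM added before taking logs. With 1 FPKM added instead, its rise was 3.03 and 3.13, and in ΔE2 XRCC2 then rose more (3.08). BLM, the helicase that unwinds ends and dissolves joint molecules, went from 0.817 and 0.658 to 7.56, 6.35 and 8.19 in ΔE2 and 8.66, 7.72 and 6.99 in ΔSE12313-b, by 3.15 and 3.24. RBBP8, which encodes CtIP and starts resection, was at 10.8 and 9.89 in the controls and reached 22.1, 18.7 and 21.7 in ΔE2 and 20.05, 21.3 and 16.7 in ΔSE12313-b. Its change of 1.00 ± 0.12 in ΔE2 lay exactly at the 2-fold mark (0.96 without ΔE2 replicate 1, 0.97 without ΔE2 replicate 3 and 0.94 without control replicate 2), and that in ΔSE12313-b was 0.89. NBN, which recruits ATM to breaks, rose by 0.93 (95% interval 0.71 to 1.15) and 0.87 (0.66 to 1.09). RAD50, its partner in the MRE11 complex, had the smallest SE of any member (0.06), with 12.6 and 12.5 in the controls, 13.7 to 14.1 in ΔE2 and 14.5 to 14.6 in ΔSE12313-b. It changed by 0.15 (0.0006 to 0.30, limma adjusted p = 0.0826) and 0.21 (0.06 to 0.36, adjusted p = 0.0214), and with the libraries centred on their median gene by -0.01 and -0.08. The annotated exons of RAD50 share 76.9% of their bases with a gene without a symbol on the same strand, so that its level is uncertain to that extent.

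Among the checkpoint kinases only CHEK1, which halts the cell cycle when forks stall, was a DEG. Its FPKM was 3.62 and 3.69 in the controls, 17.7, 16.2 and 18.4 in ΔE2 and 11.6, 11.9 and 11.1 in ΔSE12313-b. It rose by 2.22 ± 0.08 and 1.63 ± 0.08 (limma adjusted p = 8.23e-07 and 3.15e-06). ATR, which activates CHEK1 at single-stranded DNA, rose by 0.44 (95% interval 0.21 to 0.68) and 0.94 (0.70 to 1.17), and by 1.01 in ΔSE12313-b without its replicate 3, past the 2-fold mark. CHEK2, the effector of ATM, rose by 0.64 (0.38 to 0.89) and 0.78 (0.53 to 1.04). ATM, the kinase activated by double-strand breaks, was one of 2 members that fell. Its kept transcript was at 11.9 and 10.5 in the controls, 8.32, 9.28 and 6.89 in ΔE2 and 6.73, 7.68 and 5.57 in ΔSE12313-b, and fell by 0.46 (95% interval -0.85 to -0.07) and 0.75 (-1.14 to -0.37) on the log2 scale, with limma adjusted p of 0.0469 and 0.00533.

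The fall of ATM rests on the transcript kept. That transcript has 554 bases, 4.21% of the 13169 bases of the longest one, and 84 and 70 reads in the controls. The longest transcript had an FPKM of 7.54 and 7.50 in the controls, 7.04, 7.55 and 7.29 in ΔE2 and 5.78, 7.12 and 5.45 in ΔSE12313-b, and changed by -0.04 and -0.30, with limma adjusted p of 0.767 and 0.0559. The ΔE2 clones then overlapped the controls. Choosing the longest transcript of every gene also took RAD51C in ΔSE12313-b to 0.95, below the 2-fold mark, and lowered the rise of RAD54B to 1.19 and 1.16. FSBP, on the same strand, shares 66.0% of the annotated exon bases of RAD54B and changed by 0.49 and 0.60, so that the level of RAD54B is uncertain.

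**Figure D1:**
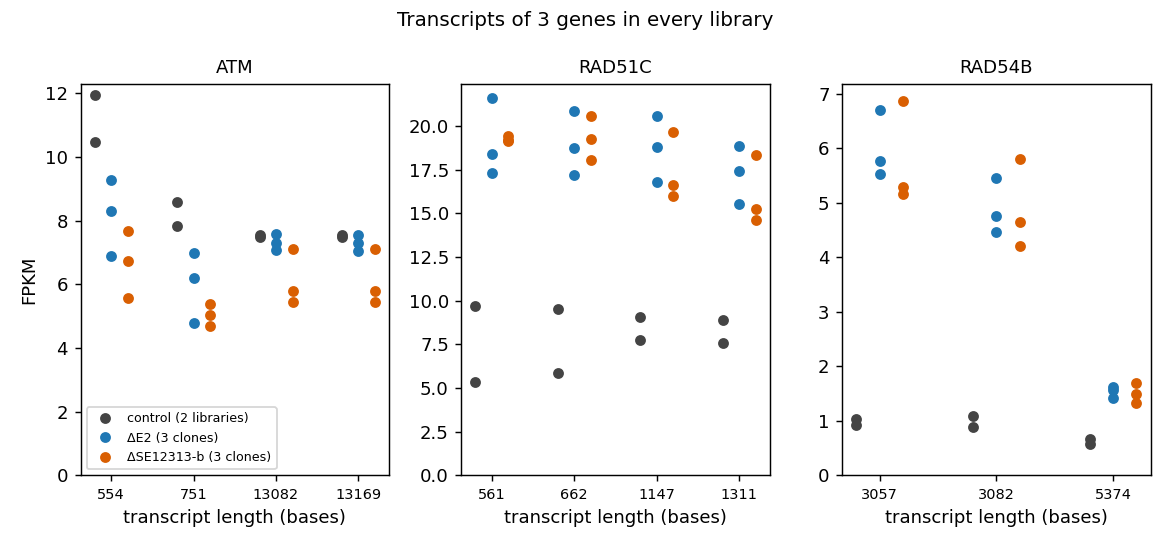
FPKM (linear axis from 0) of every listed transcript of ATM, RAD51C and RAD54B by length in bases, 1 point per library. The short ATM transcripts are lower in all 6 clones than in the controls whereas the 2 long ones overlap the controls in ΔE2, and the longest RAD54B transcript stays between 1.34 and 1.69 in the clones.

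The structure-specific nucleases moved in opposite directions. EME1, the regulatory subunit that forms a nuclease with MUS81, went from 0.513 and 0.468 in the controls, 15 and 13 reads, to 3.11, 3.47 and 3.32 in ΔE2 and 3.08, 3.43 and 2.98 in ΔSE12313-b. It rose by 2.53 ± 0.13 and 2.46 ± 0.13 (limma adjusted p = 3.71e-06 and 3.57e-06). MUS81, the catalytic subunit, was at 9.35 and 10.0 in the controls, 6.81, 6.22 and 6.47 in ΔE2 and 6.91, 6.40 and 6.31 in ΔSE12313-b. It fell by 0.57 (95% interval -0.77 to -0.37) and 0.56 (-0.76 to -0.36) on the log2 scale (limma adjusted p = 0.00105 and 0.000930). Its exons share 13.9% of their bases with CFL1 on the opposite strand, which rose by 1.31 and 1.04. EME1 in turn shares 16.4% with LRRC59 (0.94 and 1.07), as RAD54L shares 19.9% with LRRC41 (-0.40 and -0.08), again on opposite strands, and these levels are uncertain to that extent. SLX4, the scaffold that gathers these nucleases, changed by 0.17 (-0.18 to 0.52) in ΔE2 and rose by 0.44 (0.09 to 0.79, limma adjusted p = 0.0346) in ΔSE12313-b.

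With these changes the range of the members' levels narrowed. The highest mean FPKM of a member was 64.9 times the lowest in the controls (RAD50 at 12.5 and EXO1 at 0.193), 13.3 times in ΔE2 and 11.6 times in ΔSE12313-b. The value for the controls rests on EXO1, with 4 and 11 reads. Among DEGs of both deletions the ratio went from 39.9 to 8.70 and 8.61, and among DEGs of neither it stayed at 9.19, 9.85 and 8.68. No such range was computed over all genes. The 21 members that were DEGs of both deletions had a median of 1.03 in the controls, 8.01 in ΔE2 and 7.79 in ΔSE12313-b. The 13 that were DEGs of neither were higher at the start, with a median of 5.16, and reached 6.17 and 6.66. These medians describe groups chosen by the same changes and carry no test.

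Ratios between genes whose products act together are given as a description. For 12 pairs, chosen with the values known, the ratio of FPKM within a library was computed and is given without a test. In 10 of them the 6 clones were separated from both controls in one direction. No share was computed for other pairs. Of all single genes, 73.5% in ΔE2 and 75.3% in ΔSE12313-b already had no overlap with the controls. Several pairs, such as EME1 and MUS81, join a DEG of both deletions to a DEG of neither, which by itself moves the ratio. FANCI to FANCD2 was 3.60 and 3.10 in the controls, 3.51 to 3.84 in ΔE2 and 3.44 to 4.00 in ΔSE12313-b, and BRIP1 to BRCA1 was 0.571 and 0.649, 0.615 to 0.669, and 0.588 to 0.690. In these remaining 2 pairs the clones overlapped the controls. BRCA1 to BARD1 went from 0.785 and 0.735 to between 2.51 and 3.15 in ΔE2 and between 3.02 and 3.53 in ΔSE12313-b, so that the more abundant transcript of the heterodimer was BARD1 in the controls and BRCA1 in all 6 clones. EME1 to MUS81 went from 0.0549 and 0.0468 to between 0.457 and 0.558 in ΔE2 and between 0.445 and 0.536 in ΔSE12313-b, with EME1 the scarcer partner in all 8 libraries. NBN to RAD50 went from 0.868 and 0.900 to a mean of 1.53 and 1.40. UBE2T to FANCL went from 1.39 and 1.32 to a mean of 4.47 and 4.34. CHEK1 to ATR went from 0.802 and 0.818 to between 2.64 and 2.95 in ΔE2 and only between 1.23 and 1.40 in ΔSE12313-b.

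To ask whether the deletions differed, ΔE2 was compared with ΔSE12313-b directly. No member was a DEG by limma, against 1.60% of all genes higher and 2.63% lower in ΔE2, and the 95% interval of the difference lay within 2-fold in both directions for each of the 36 genes (lowest bound -0.75 for PALB2, highest 0.78 for FANCA). At an adjusted p under 0.05, 7 of the 36 members differed, a smaller share than the 26.0% of all genes, and no further member passed at an unadjusted p under 0.05 (38.8% of all genes). Voom on recovered reads also gave 0 DEGs among the members. CHEK1 was higher in ΔE2 by 0.59 (95% interval 0.42 to 0.76, limma adjusted p = 0.00176) and FANCA by 0.48 (0.18 to 0.78, adjusted p = 0.0304). PALB2 was lower in ΔE2 by a difference of -0.56 (-0.75 to -0.37, limma adjusted p = 0.00271), ATR by -0.50 (-0.71 to -0.28, adjusted p = 0.00694), FANCF by -0.45 (-0.70 to -0.20, adjusted p = 0.0206), RAD51AP1 by -0.42 (-0.69 to -0.15, adjusted p = 0.0340) and XRCC3 by -0.35 (-0.59 to -0.11, adjusted p = 0.0409). In each of these 7 genes the clones of the 2 deletions did not overlap, which was also so for BARD1 and RAD50 and for 40.8% of all genes (11.0% higher and 29.8% lower in ΔE2). CHEK1, PALB2 and ATR passed under all 21 alternatives, FANCA under 15, FANCF under 13, RAD51AP1 under 8 and XRCC3 under 7. FANCF, RAD51AP1 and XRCC3 did not pass when each library was centred on its median gene. FANCA had an adjusted p of 0.05 or more without ΔE2 replicate 1 or 3 and without ΔSE12313-b replicate 1 or 3, FANCF without the same 4 libraries, RAD51AP1 without any 1 library other than ΔSE12313-b replicate 3, and XRCC3 without any 1 library other than ΔE2 replicate 1.

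For 4 of these 7 genes the surrounding genes differed by a similar amount. Over the tested genes that start within 10 Mb, the median difference between ΔE2 and ΔSE12313-b was 0.50 around CHEK1 (104 genes), -0.51 around PALB2 (208 genes), -0.41 around ATR (69 genes) and -0.52 around RAD51AP1 (116 genes), close to the genes' own 0.59, -0.56, -0.50 and -0.42. The median was 0.23 around FANCA and -0.19 around XRCC3. FANCF was apart from its surroundings, with -0.45 against a median of -0.07 over 45 neighbours, of which 4.44% had a lower value. SLX4 showed the reverse, with -0.27 against -0.59 around it. The median over all tested genes was -0.11. FANCA, PALB2 and SLX4 lie on chromosome 16 with ADAMTS18, and CHEK1, ATM, FANCF and MUS81 on chromosome 11. What moves whole regions between these clones was not tested. Against the controls the large rises stood far above their surroundings, for instance 4.99 against 0.18 for EXO1, 4.50 against 0.12 for XRCC2 and 3.25 against 0.07 for BRCA1 in ΔE2. PALB2, with 0.24 in ΔE2, lay above a neighbourhood at -0.38, and ATM, with -0.46, below one at 0.52.

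The median deviation of the members from their group mean differed between clones of one deletion. The members of ΔE2 replicate 2 lay at a median of -0.11 from the mean of their group on the log2 scale, with 10 of 36 above it, and those of ΔE2 replicate 3 at 0.10 with 30 above, while the medians over all genes were -0.0035 and 0.03. ΔSE12313-b replicate 3 was low in the same way, with a median of -0.10 and 9 of 36 above the mean, against -0.0081 over all genes. Members of the same library are not independent of each other, and the share of all genes above the mean was not computed. The median SD of a member was 0.09 in the controls, 0.14 in ΔE2 and 0.14 in ΔSE12313-b, against 0.07, 0.15 and 0.15 over all genes, and the smallest rise of a member that was a DEG of both deletions was 1.20.

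Other genes of the same and neighbouring pathways were read from lists. Their counts of higher DEGs stand beside 11.2% of all genes in ΔE2 and 14.7% in ΔSE12313-b, those of lower DEGs beside 8.36% and 7.83%. Their medians stand beside 0.14 and 0.27 over all genes. Of 52 further genes of recombination and the Fanconi pathway 51 were tested, and 21 were DEGs with a higher level in ΔE2 and 22 in ΔSE12313-b, with medians of 0.62 and 0.89. Among the large rises of that list were those of DNA2, a resection nuclease (3.05 and 3.12), CLSPN, the adaptor through which ATR reaches CHEK1 (2.98 and 3.13), and GEN1, a resolvase (2.92 and 2.85). ZSWIM7, a recombination factor of the Shu complex, fell by 1.02 in ΔSE12313-b on the log2 scale and was the list's only DEG with a lower level (-0.69 in ΔE2). Among 12 genes of end joining 2 were higher DEGs in ΔE2, near the share of all genes, and 5 in ΔSE12313-b. POLQ, the polymerase of the alternative route, stood out with 3.97 and 3.82, followed by PRKDC (1.27 and 1.51), PARP1 (0.97 and 1.10) and XRCC6 (0.99 and 1.02), the last 2 being DEGs of ΔSE12313-b alone. Of 22 genes of excision and mismatch repair 4 and 8 were higher DEGs, the former again near the share of all genes, with a median of 0.23 and 0.39, for instance UNG (2.70 and 2.73), ERCC6 (1.52 and 1.74) and XPA (1.31 and 1.20). All 6 origin licensing genes rose in both deletions, with medians of 2.58 and 2.79, for instance MCM4 by 3.69 and 3.76, MCM2 by 2.99 and 3.09, MCM5 by 2.60 and 2.93 and MCM7 by 2.57 and 2.64.

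Targets of p53, which is activated by DNA damage through ATM and CHEK2, were read as a further list. Of 12 such genes 0 were higher DEGs by limma and 2 lower ones in ΔE2, and 1 was higher and 3 lower in ΔSE12313-b, with medians of -0.16 and 0.04. Of all genes 11.2% were higher DEGs and 8.36% lower ones in ΔE2, and 14.7% and 7.83% in ΔSE12313-b, with medians of 0.14 and 0.27. At an adjusted p under 0.05, 3 were higher and 4 lower in ΔE2 and 4 were higher and 4 lower in ΔSE12313-b, beside 54.1% and 59.4% of all genes in either direction. At an unadjusted p under 0.05, 11 of the 12 passed in ΔE2 and 8 in ΔSE12313-b (59.7% and 63.9% of all genes). SESN2, a stress-induced inhibitor of growth signalling, fell from 23.6 and 23.3 FPKM in the controls to between 5.75 and 7.46 in ΔE2 and between 6.93 and 8.18 in ΔSE12313-b (log2 fold change -1.87 and -1.63). GADD45A, a growth arrest gene, changed by -1.27 and -1.41 and CDKN1A, which encodes the cell cycle inhibitor p21, by -0.96 and -1.20, CDKN1A being a DEG of ΔSE12313-b alone. FDXR, a mitochondrial reductase, was the 1 higher DEG of ΔSE12313-b, with a log2 fold change of 1.05, against 0.72 and so under 2-fold in ΔE2.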

How the data were processed

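The authors depleted total RNA of 8 EA.hy926 libraries (2 control, 3 ΔE2, 3 ΔSE12313-b) of ribosomal RNA, trimmed the reads with Trim Galore 0.4.4, mapped them to hg19 with STAR 2.5.4b and deposited FPKM per RefSeq transcript, per the file headers. The libraries were made with a directional kit. The methods name featureCounts with Gencode genes for the counts behind the authors' DEGs, while this table lists RefSeq transcripts, and neither its counting tool nor its use of strand is given in the sources used here. Whole reads were recovered from FPKM and length (99.96% to 99.98% of values within 0.1 read of a whole number) and used for depth, 12067559 to 19101153 reads per library, and 1 alternative. These read numbers carry counting error only.

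One transcript per gene was kept, the one with the highest mean. The 13790 genes that reached 0.5 FPKM in 2 or more libraries were fitted with limma 3.58.1 (R 4.3.3) on log2(FPKM + 0.1), 3 groups in 1 model with a variance trend, two-sided, Benjamini-Hochberg adjusted. The fit was also run on simulated data in which controls and clones had the same spread, unlike these libraries, and no result here rests on that run. The members, lists and motifs were chosen with earlier results of these data known. Every member is named, library values are given for the 3 largest changes of each role among DEGs, intervals for members that were DEGs of neither deletion, and of each other list the 4 largest changes and every lower DEG. Some genes that this rule would name are not reported here. Replicate numbers did not pair the libraries, with correlations of deviations between -0.08 and 0.11. Alternatives were 2 pseudocounts, 2 filters, 2 scalings, a replicate block, no trend, 2 groups per fit, the longest transcript, other thresholds, each library left out and voom on recovered reads. Voom was added after the data had been seen. Those featureCounts values were not used here.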

Additional observations from a re-analysis of the deposited data

Results flagged for a closer look

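Between ΔE2 and ΔSE12313-b, 7 of 36 members differed by limma at an adjusted p under 0.05, a smaller share than the 26.0% of all genes that did, each tested as the direct difference between the deletions over 3 clones each. On the log2 scale the difference, ΔE2 minus ΔSE12313-b, was 0.59 for CHEK1 (adjusted p = 0.00176), 0.48 for FANCA (0.0304), -0.56 for PALB2 (0.00271), -0.50 for ATR (0.00694), -0.45 for FANCF (0.0206), -0.42 for RAD51AP1 (0.0340) and -0.35 for XRCC3 (0.0409). None reached 2-fold. Groups of 2 and 3 libraries are too small for a search for single outlying libraries.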

How the results depend on the processing

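The number of members that were higher DEGs over 21 alternatives lay between 20 and 27 in ΔE2, and between 20 and 29 in ΔSE12313-b. Under each of them 29 of 36 members kept their call in ΔE2, 25 in ΔSE12313-b and 35 in the direct comparison. A replicate block gave 23, 21 and 0 higher DEGs, and the libraries share only a number. It left the adjusted p of CHEK1, PALB2 and ATR alone under 0.05 in the direct comparison. RAD51D and RBBP8 in ΔE2 fell below 2-fold with a pseudocount of 1, with centred libraries, with quantile normalization and with voom, and BARD1 in ΔSE12313-b with a pseudocount of 1 (0.85), centred libraries (0.91) and voom (0.99).

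The members' median in ΔE2 was 1.41 with a pseudocount of 1, 1.62 with centred libraries and 1.54 with the longest transcripts, and that in ΔSE12313-b was 1.45, 1.41 and 1.43, with 1.47 after quantile normalization and 1.46 by voom. Leaving out a library gave 1.68 to 1.88 in ΔE2, 1.68 to 1.75 in ΔSE12313-b and -0.043 to 0.024 in the direct comparison, where centring gave 0.13. ATM became the 1 lower DEG of ΔSE12313-b with centred libraries (-1.04), quantile normalization (-1.09), voom (-1.03) and a 1.5-fold mark, at which CHEK1 was also the 1 higher DEG of the direct comparison. FANCF in ΔE2 turned to -0.10 with centred libraries, -0.10 after quantile normalization, -0.093 by voom and -0.043 without control replicate 2, and was 0.16 without control replicate 1. RAD50 turned to -0.0084, -0.10 and -0.0014 in ΔE2 and to -0.075, -0.17 and -0.050 in ΔSE12313-b under the first 3 of these. Centring and quantile normalization remove the shift of the median gene. The cause of the other changes was not tested.

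Over all genes, between 1065 and 3109 genes were higher DEGs and 653 to 1945 lower ones in ΔE2 (1544 and 1153 as reported), 1201 to 4124 and 593 to 1678 in ΔSE12313-b (2032 and 1080), and 100 to 492 and 140 to 1139 directly (221 and 362). A library left out of the controls leaves 1 there, which is assumed to vary like the clones. Higher DEGs ranged from 2 to 6 and 2 to 7 among end joining genes and from 3 to 9 and 3 to 10 among excision and mismatch genes. EXO1, RAD54L, FANCB, XRCC2 and EME1 had fewer than 20 reads in each control, which limits the precision of their changes.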
